A study of Mus musculus with 12 samples.

Results

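The genes for the proteins of the cytosolic ribosome were followed in the prefrontal cortex of mice after repeated cocaine. They were taken by name, as every locus that the deposited tables mark as tested and whose gene symbol is Rpl or Rps with a number (with an a, l or x after it in some cases), Rplp0, Rplp1, Rplp2 or Rpsa. This gave 75 genes of the 16078 gene names on tested loci, with 43 genes of the large and 32 of the small subunit. Male C57BL/6 mice, 10 weeks old, received cocaine (20 mg/kg per day) or saline by intraperitoneal injection for 14 days, and the prefrontal cortex was taken 2 h, 24 h or 7 d after the last dose. The 12 libraries fall into 6 groups of 2: saline 2 h, cocaine 2 h, saline 24 h, cocaine 24 h, saline 7 d and cocaine 7 d. Every library pooled the tissue of 5 mice, and the controls of each time point also received injections. The tables hold 1 FPKM value per group, pooled over its 2 libraries (FPKM is the number of fragments scaled to the length of the transcript and to the mapped fragments of the group). No spread between libraries could therefore be computed, and no difference described here has a replicate check, a test or an error. The depth behind each pooled value cannot be read from the tables. The column headers mark the groups C and no letter, and in the sample descriptions C stands for cocaine. The columns were assigned by their likeness to the levels in the study's supplementary tables instead, in which the C column is saline. Every ratio would change sign if they were read the other way. Each time point was normalized as a table of its own, which touches every level set across time points.

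The cytosolic ribosome translates the mRNAs of the cell, and its proteins are made in matched amounts from many separate genes. In the large subunit these proteins surround the site of peptide bond formation and the tunnel through which the new chain leaves, and in the small subunit they hold the mRNA and the decoding site. The mRNAs of vertebrate ribosomal proteins usually begin with a tract of C and T bases, known as a terminal oligopyrimidine tract, through which mTOR signaling and the protein Larp1 control their translation. In neurons ribosomes are found in the cell body and also in dendrites, where local translation serves synaptic plasticity.

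To show the runs of C and T near the annotated start sites, their sequences are given here for the 4 genes with the lowest and the 4 with the highest 7 d ratio of cocaine to saline among the 54 of 75 genes that have an entry in the RefSeq promoter table (GRCm38.p6). Each window runs 5′ to 3′ on the gene's strand from 10 bases before the annotated start through the first 20 bases of the first exon, and capitals mark its longest run of C and T. The first 4 windows belong to the genes with the lowest ratio, at chr3:90213629-90213658 (minus strand), chr2:39005112-39005141 (minus), chrX:37085203-37085232 (minus) and chr1:39367841-39367870 (plus).
Rps27: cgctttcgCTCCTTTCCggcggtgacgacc
Rpl35: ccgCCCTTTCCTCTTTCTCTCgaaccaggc
Rpl39: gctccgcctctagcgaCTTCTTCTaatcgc
Rpl31: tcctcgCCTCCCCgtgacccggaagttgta
The other 4 belong to the genes with the highest ratio, at chrX:74270806-74270835 (plus), chr7:28350679-28350708 (plus), chr10:23787190-23787219 (minus) and chr9:120571507-120571536 (plus).
Rpl10: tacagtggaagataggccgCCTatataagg
Rps16: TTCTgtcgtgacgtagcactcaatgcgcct
Rps12: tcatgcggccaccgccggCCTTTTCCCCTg
Rpl14: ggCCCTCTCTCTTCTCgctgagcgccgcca
A run of at least 8 C or T bases on the strand of the gene was found in 19 of the 54 windows (35.2%), against 11.2% of all 27025 promoters in the same window. Runs were counted anywhere in the window, also before the start, so this is not the share of genes whose mRNA begins with a tract. The letters CTTTC on that strand were found in 12 of the 54 (22.2%), against 3.69% of all promoters, and can lie inside such a run. Long runs occur among both the lowest and the highest ratios: that of Rpl35 spans 18 bases and that of Rpl14 spans 14. The median 7 d log2 ratio was −0.19 for the 19 genes with a run of at least 8 and −0.27 for the other 35. The window depends on the annotated start, which may lie some bases away from the start used in cortex.

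Ribosomal protein mRNAs were abundant in all 6 groups. In saline at 2 h the 74 genes with their own tested locus at every time point had FPKM values from 15.5 (Rps4l) to 1280 (Rplp1), with a median of 206. FPKM is scaled to length, but how well the scaling holds for such short mRNAs was not tested. The order of genes given here is that of their FPKM values alone. Rplp1, a protein of the lateral stalk that recruits translation factors to the ribosome, had the highest mean over the 6 groups, followed by Rps15, Rps21, Rpl41 and Rps29. The lowest means belonged to Rps4l, a gene named for its likeness to Rps4, and to Rps27l, a p53-responsive paralog of Rps27, which ranged from 18.7 to 28.3 FPKM. Next were Rpl5, which carries the 5S rRNA together with Rpl11, then Rpl14 and Rpl22. The levels of most genes were narrow across the 6 groups: the highest was 1.06 times the lowest for Rps16 and 2.40 times for Rps20, with a median over the genes of 1.29.

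The table rows that match the name rule but were not marked as tested were Rpl10l, listed at 0 in all 6 groups, Rpl39l and Rpl3l, at no more than 0.251 FPKM, and a second locus of Rpl21 at 24 h (0.233 and 0.288 FPKM). The first 3 are paralogs known mainly from testis (Rpl10l, Rpl39l) and striated muscle (Rpl3l), while Rpl10, Rpl39 and Rpl3, after which they are named, stood between 163 and 281 FPKM. Rpl23 had a locus of its own only at 7 d. At 24 h Rpl37a, Rps6 and Rps9 each had a second tested locus at under 1 FPKM, which did not enter the comparisons. The tissue label was checked against marker genes: those of excitatory neurons summed to between 3090 and 3409 FPKM in the 6 groups. Those of choroid plexus other than Ttr were at no more than 0.668 FPKM, and Otx2 was listed at 0 in 4 of the 6 groups.

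**Figure D1:**
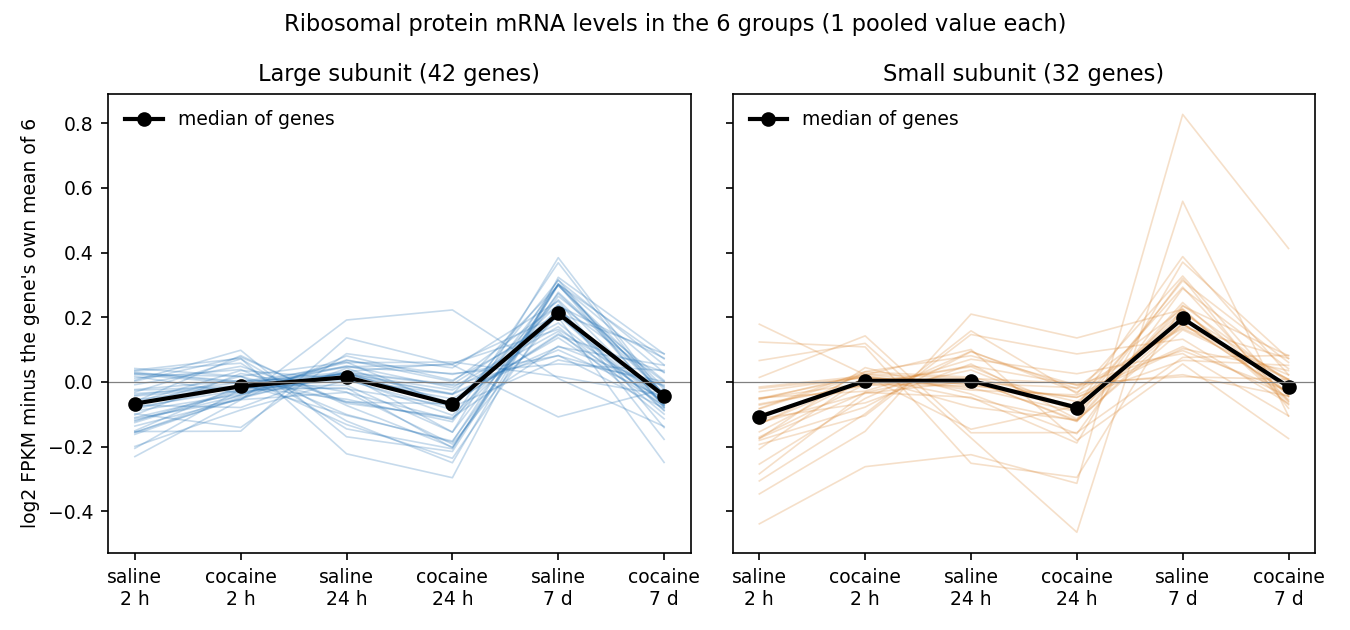
Levels of 74 ribosomal protein genes in the 6 groups, as log2 FPKM minus the gene's own mean over the 6 groups, for the large (left) and the small subunit (right); thin lines are genes and the black line is their median. Both medians are highest in saline at 7 d, which holds the highest of 6 levels for 66 of the 74 genes.

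At 2 h after the last dose, ribosomal protein mRNAs lay slightly above saline as a group. The median log2 ratio of cocaine to saline was 0.08, which is 5.47% above saline, and 64 of 74 genes were above 0, against 56.1% of all 13584 loci compared (median 0.02). Loci enter these comparisons if both groups are above 0 and their mean FPKM reaches 1. A difference of at least 1.2-fold is counted. None of the 74 genes was lower or higher by that much, while 7.94% of all loci were lower and 10.9% higher.

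The highest 2 h ratios were all in the small subunit. Rps14, a protein of the small subunit platform, read 381 FPKM in saline and 453 in cocaine, a log2 ratio of 0.25. Rps27l read 18.7 and 21.9 (0.23). Rps29, a small zinc-binding protein, read 670 and 780 (0.22). Rps27a, which is made as a fusion with ubiquitin, read 172 and 199 (0.21). These 4 ratios stayed inside 1.2-fold. The lowest were Rps4l (15.5 and 13.9 FPKM, −0.16), Rpl6 (−0.05), Rpl12 (−0.04) and Rpl27a (−0.03). The median ratio was 0.10 in the small subunit, where 30 of 32 genes were above 0, and 0.06 in the large subunit, where 34 of 42 were. Genes are not replicates of a condition and share their libraries, so no test was made between the subunits.

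At 24 h the group lay on the other side. The median log2 ratio was −0.07, or 4.98% below saline, and 68 of 74 genes were below 0, against 46.9% of all 14035 loci compared (median 0.01). Lower by at least 1.2-fold were 2 genes (background 5.87%) and higher by that much was none (background 6.57%). Both genes belong to the small subunit. Rps27, a zinc-binding protein, read 391 FPKM in saline and 320 in cocaine (−0.29), and Rps4l read 14.7 and 12.1 (−0.28). Rps27a read 237 and 207 (−0.19) and Rpl34 read 231 and 203 (−0.19). The highest were Rps27l (0.07), Rpl18 (0.03), Rplp2 (0.02) and Rpl14 (0.01). The medians of the large (−0.07) and the small subunit (−0.08) were close to each other.

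At 7 d ribosomal protein mRNAs were lower in cocaine, in both subunits and by more than at the earlier times. The median log2 ratio was −0.24, or 15.2% below saline, and 73 of 75 genes were below 0, against 52.5% of all 13666 loci compared (median −0.01). Lower by at least 1.2-fold were 32 of 75 genes (42.7%), where 12.4% of all loci were. None was higher by that much, against 8.87% of all loci. Among loci whose mean FPKM reaches 50, to which 73 of the genes belong, 31 of the 73 were lower and the share over all such loci was 18.4%. By subunit, 21 of 43 large subunit genes (median −0.26) and 11 of 32 small subunit genes (median −0.21) were lower by at least 1.2-fold. Dividing each group by the upper quartile of its loci left 17 of 75 genes lower by at least 1.2-fold, with a median of −0.18, where 8.47% of all loci were lower. After subtraction of a length trend, 5 of 73 were lower (5.85% of all loci). The direction turned (median 0.35, over all loci 0.58) in 1 scaling, in which the single locus Trbc2 held most of the sum at 7 d.

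**Figure D2:**
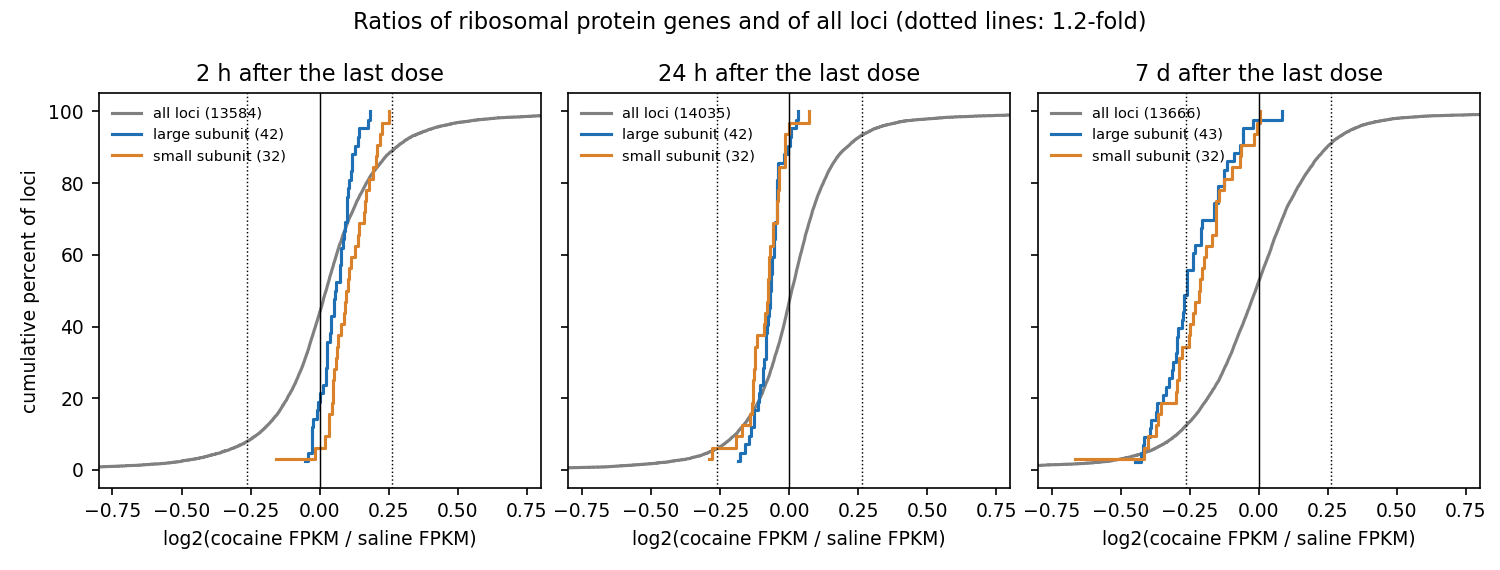
Cumulative percent of loci (vertical axis) at or below each log2 ratio of cocaine to saline FPKM (horizontal axis, drawn from −0.8 to 0.8) at 2 h, 24 h and 7 d, for all loci, large subunit genes and small subunit genes. The curves of both subunits lie to the right of 0 for most genes at 2 h, a little to the left at 24 h and furthest to the left at 7 d.

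The lowest 7 d ratio was that of Rps27 (chr3:90212725-90213639, GRCm38). It read 462 FPKM in saline against 479 in cocaine at 2 h, 391 against 320 at 24 h, and 650 against 410 at 7 d. The 7 d ratio was −0.66, or 36.9% below saline. The saline level at 7 d is the highest of the 6, and the cocaine level at 7 d lies between the saline levels of 24 h and 2 h. Rps27rt, a retrogene copy of Rps27 listed under its own name, read 172 in saline and 148 in cocaine at 7 d (−0.22), and reads of the 2 copies may not be fully told apart. Rps27l, the paralog, read 28.3 and 21.9 (−0.37).

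Next in order were genes of the large subunit. Rpl35, which sits beside the exit of the peptide tunnel, read 135 against 132 FPKM in saline and cocaine at 2 h, 135 against 132 at 24 h, and 152 against 111 at 7 d (−0.45, 26.7% lower). Rpl39, a very short protein in the wall of the tunnel, read 192 against 208 at 2 h, 219 against 193 at 24 h, and 281 against 209 at 7 d (−0.43). Rpl31, also near the tunnel exit, read 179 against 186 at 2 h, 189 against 179 at 24 h, and 250 against 187 at 7 d (−0.42). In Rpl39 and Rpl31 the saline level at 7 d stands apart from 5 levels that lie close together. In Rpl35 the cocaine level at 7 d is also below the other 4.

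Rpl41, the shortest ribosomal protein, read 724 against 750 FPKM at 2 h, 808 against 771 at 24 h, and 909 against 682 at 7 d (−0.41). Rps7 read 193 against 199 at 2 h, 217 against 193 at 24 h, and 260 against 197 at 7 d (−0.40). Rpl17, near the tunnel exit as well, read 295 against 301 at 2 h, 273 against 257 at 24 h, and 364 against 277 at 7 d (−0.39). All 3 had their highest level in saline at 7 d.

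Rps20, in the head of the small subunit, stood apart in another way. It read 165 against 187 FPKM at 2 h, 191 against 180 at 24 h, and 397 against 298 at 7 d (−0.41), so that both 7 d levels were above the other 4. Its locus in the 7 d table spans chr4:3824634-3835675, whereas in the 2 h and 24 h tables it begins at 3830953, and the levels are therefore not for the same stretch. Over all genes, 47 of the 74 had the same locus ends in all 3 tables.

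At the other end of the 7 d order were genes with little difference. Rpl14 read 111 FPKM in saline and 118 in cocaine (0.09), and its saline level at 7 d was the lowest of its 6 levels. Rps12 read 335 and 337 (0.01) and Rps16 read 187 and 186 (−0.01). Close to the 1.2-fold line lay several genes of the large subunit, such as Rpl23a (−0.27), just past it, and Rpl22 (−0.26), which just missed it.

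**Figure D3:**
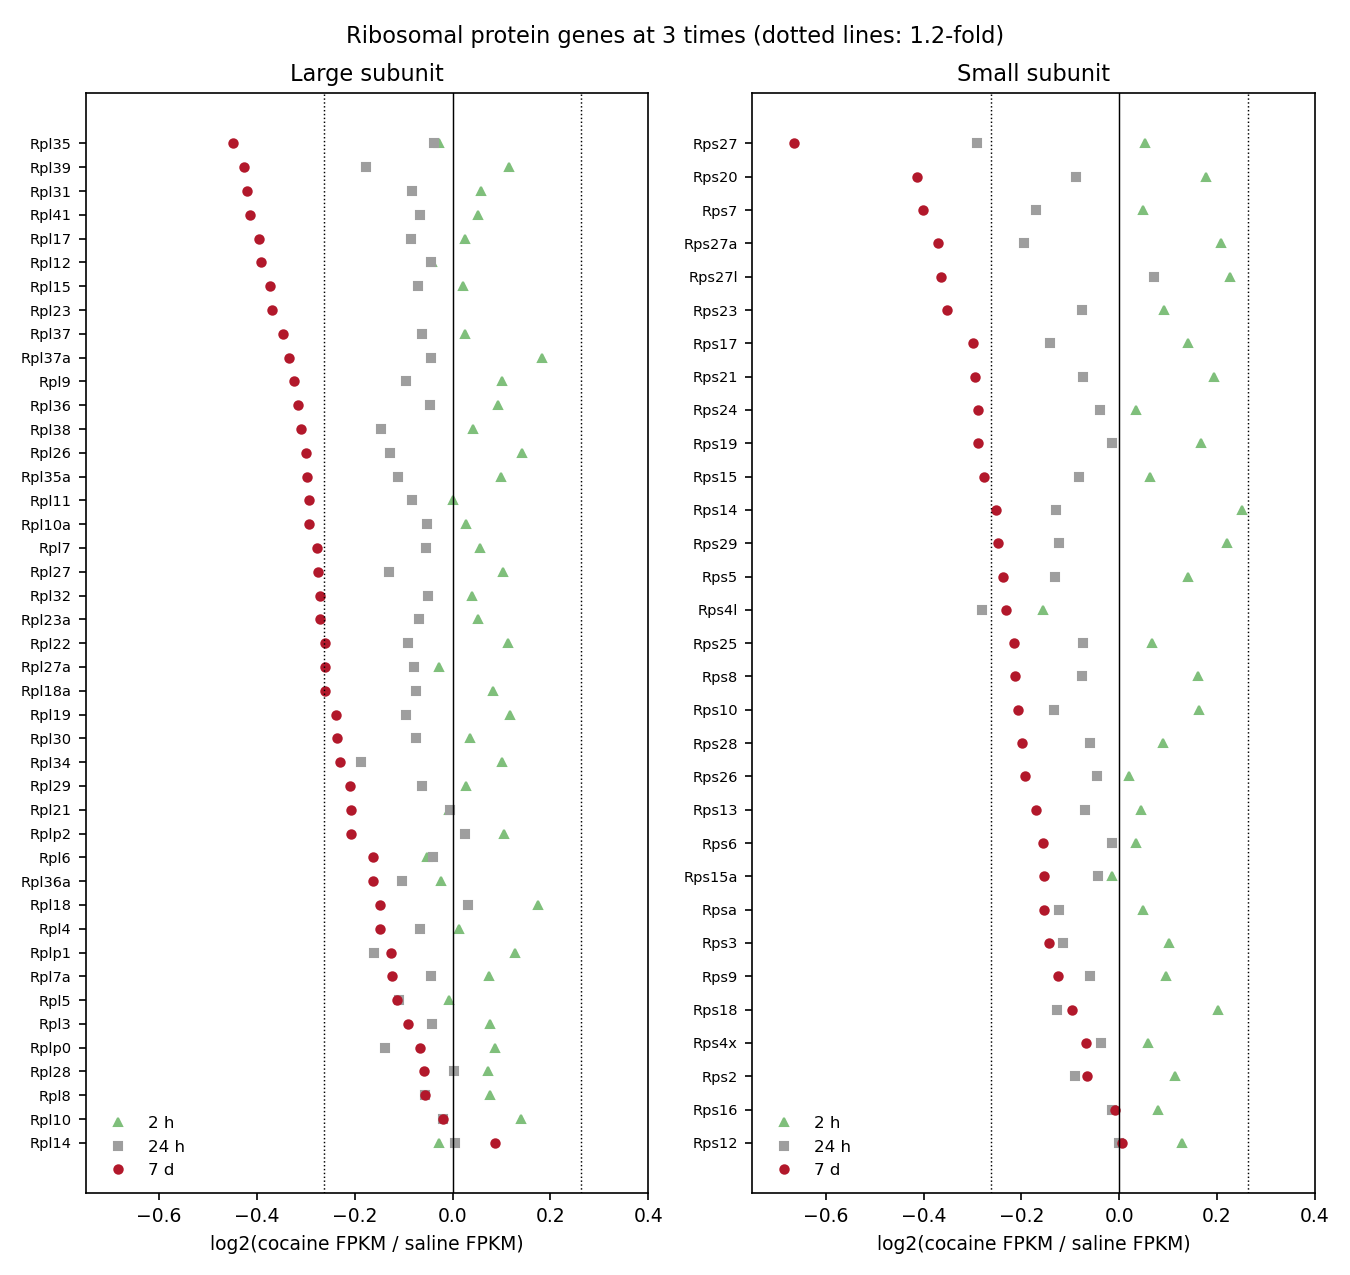
Log2 ratio of cocaine to saline FPKM (horizontal axis) of 74 of the 75 genes (rows, ordered by the 7 d ratio) at 2 h, 24 h and 7 d (Rpl23 at 7 d alone), large subunit on the left and small subunit on the right; dotted lines mark 1.2-fold. The 7 d points run from −0.66 (Rps27) to 0.09 (Rpl14), and 32 of them are left of the lower dotted line.

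The proteins of the stalk and some others with known roles showed smaller ratios. Rplp0, the base of the stalk, read 180 FPKM in saline and 172 in cocaine at 7 d (−0.07). Rplp1 read 1592 and 1459 (−0.13) and Rplp2 read 243 and 211 (−0.21). Rpsa, a small subunit protein also known as a laminin receptor, read 229 and 206 (−0.15). None of the 4 was lower by at least 1.2-fold at any time, and all 4 were above 0 at 2 h. Rps6, the protein that S6 kinases phosphorylate downstream of mTOR, was among the least variable genes, at 207 against 212 FPKM at 2 h, 206 against 204 at 24 h, and 226 against 203 at 7 d (−0.16). Rps15, Rps21 and Rps29, the most abundant after Rplp1 with Rpl41, had 7 d ratios of −0.28, −0.29 and −0.25. Rps21 read 650 against 743 FPKM at 2 h, 955 against 907 at 24 h, and 965 against 787 at 7 d, with both 24 h levels near the 7 d saline level. At the low end of abundance, Rpl5 (−0.11), Rpl22 (−0.26) and Rps4l (−0.23) were not lower by 1.2-fold at 7 d, and Rps27l (−0.37) was.

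The 6 levels were then set side by side. Saline at 7 d was the highest of the 6 levels for 66 of 74 genes, where it was for 25.9% of the 12178 names compared. The median log2 ratio of saline 7 d to saline 2 h was 0.29 and that to saline 24 h was 0.20, with 72 and 68 of 74 genes above 0. The medians over all names were −0.0038 and −0.024. Among other names with the shortest transcripts (the first of 20 groups of like length) they were 0.23 and 0.21. The cocaine levels of 7 d were close to the earlier cocaine levels: the median log2 ratio was −0.02 to cocaine 2 h and 0.05 to cocaine 24 h, with 28 and 50 of 74 genes above 0. The summed FPKM of the 74 genes was 19396 in saline against 20649 in cocaine at 2 h, 20740 against 19523 at 24 h, and 24264 against 20481 at 7 d. The sum for cocaine at 7 d thus lies between the saline sums of 2 h and 24 h, and the sum for saline at 7 d is above the other 5.

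Gene by gene, the cocaine level at 7 d lay inside the range of the 3 saline levels for 58 of 74 genes (78.4%), where it did for 61.3% of all names. It lay inside the narrower range of saline 2 h and saline 24 h for 40 of 74, against 36.6% of all names. Of the 47 genes with the same locus ends in all tables, saline at 7 d was the highest for 41 (25.9% of all names). Lower by at least 1.2-fold at 7 d were 20 of the 47 (12.4% of all loci), with a median 7 d ratio of −0.24. The 3 saline groups were normalized in separate tables, and the part of this in these levels was not tested.

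Transcript length went with the 7 d ratio over all loci. Ribosomal protein mRNAs are short: the longest protein-coding transcript of the 73 genes with a known length had a median of 855 nt, and the coding part a median of 456 nt. When the other loci were put into 20 groups of like length, the shortest group (under about 916 nt) had a median 7 d log2 ratio of −0.23 and the longest 0.14. The 43 ribosomal protein genes within that shortest group had a median of −0.25, near that of the other loci in it. In the next group 12 genes had −0.29 against −0.16 in the other loci, and in the group after it 9 genes had −0.16 against −0.12. In every longer group that held ribosomal protein genes, these also lay below the other loci. With the median of other loci of like length subtracted, the median over the 73 genes was −0.05, and 5 of 73 genes were lower by at least 1.2-fold, where 5.85% of all loci were. The 5 were Rps20 (−0.44), Rps27 (−0.44), Rpl15 (−0.29), Rpl35 (−0.29) and Rpl12 (−0.27), named here after their values were seen. The length used is that of the longest annotated transcript, which need not be the one expressed in cortex. For Rps20 it is 3706 nt, with a coding part of 360 nt. Rps20 was therefore set beside long loci (median 0.03), and its place among the 5 depends on that length.

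The groups of other loci lay closer together at the earlier times. At 2 h the shortest had a median of −0.01 and the longest of 0.08, and the 43 genes in the shortest had 0.09. At 24 h these values were −0.02, 0.04 and −0.08. Between time points, the shortest group of other names had a median log2 ratio of saline 7 d to saline 2 h of 0.23 and the longest of −0.19. For saline 7 d to saline 24 h these medians were 0.21 and −0.20. For cocaine 7 d to cocaine 2 h these medians were −0.0046 and −0.12. The part of transcript length, and of anything in the libraries that goes with it, in the 7 d ratio of the ribosomal protein genes was not tested.

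**Figure D4:**
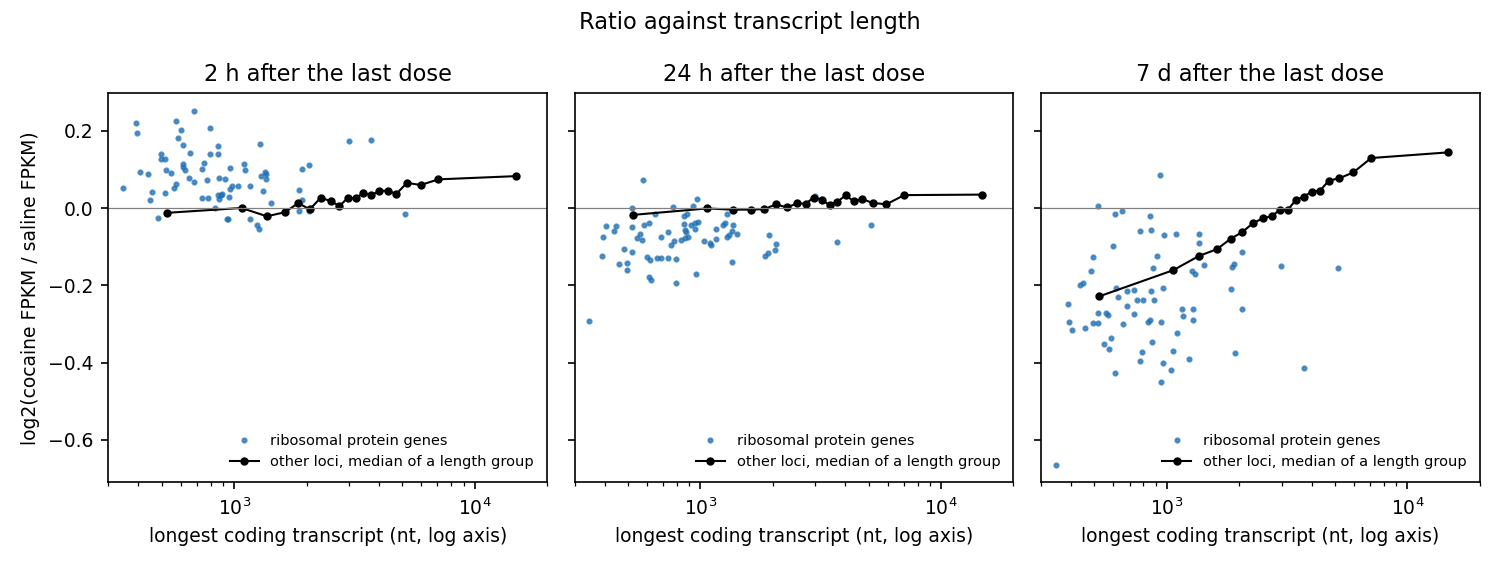
Log2 ratio of cocaine to saline FPKM (vertical axis) against the longest coding transcript (horizontal log axis, nt) at 2 h, 24 h and 7 d. Blue points are ribosomal protein genes and black points are medians of the other loci in 20 groups of like length, placed at the geometric mean of the group's shortest length (taken as at least 300 nt) and longest length; at 7 d the black line climbs from −0.23 to 0.14, while its ends are −0.01 and 0.08 at 2 h and −0.02 and 0.04 at 24 h.

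Within the ribosomal protein genes the 7 d ratio ran more closely with the coding length than with the longest annotated transcript. Which length matters more cannot be read from this, because the longest annotated transcript need not be the one expressed. That of Rps15a is 5130 nt, with a coding part of 393 nt. Spearman's rho over 73 genes was 0.44 with the coding length and 0.155 with the longest transcript, and the genes share their libraries. Of 24 genes with a coding part under 400 nt, 12 were lower by at least 1.2-fold (median −0.28), and so were 38.2% of the 545 other loci of that coding length (median −0.20). Of 29 genes between 400 and 600 nt, 15 were (median −0.27), against 22.9% of 896 other loci (median −0.12). Of 20 above 600 nt, 4 were (median −0.15), against 6.68% of 9522 other loci (median 0.01). This last class has no upper limit, while its ribosomal protein genes end at 1260 nt, so its other loci are not of like length. With the median of other loci of like transcript length subtracted, the 7 d ratios of these 20 genes ran from −0.29 (Rpl15) to 0.25 (Rpl14). Rpl4 and Rpl3, the longest at 1260 and 1212 nt, had ratios of −0.15 and −0.09. Spearman's rho of the 7 d ratio with the mean FPKM was −0.163.

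Ribosomal proteins that carry other names, or whose locus is merged with a neighbor, lay on the same side. At 7 d, 6 of these 9 loci were lower by at least 1.2-fold (12.4% of all loci) and none higher, with a median of −0.29. At 2 h and 24 h none of 10 was past 1.2-fold, with medians of 0.08 and −0.08. Over all loci 7.94% were lower and 10.9% higher at 2 h, and 5.87% and 6.57% at 24 h. Fau, which encodes Rps30 fused to a ubiquitin-like protein, read 392 FPKM in saline and 302 in cocaine at 7 d (−0.38). Rps19bp1, which binds Rps19, is not itself a ribosomal protein and is not among the 9, read 21.2 and 16.2 (−0.39). Rpl36al, Rpl22l1 and Rps3a1 had ratios of −0.30, −0.30 and −0.29. Gnb2l1, now called Rack1, a scaffold on the small subunit, read 163 and 148 (−0.14).

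The proteins of the mitochondrial ribosome, a separate machine that translates mitochondrial mRNAs, had a median of −0.22 at 7 d. Of their 70 loci 27 were lower by at least 1.2-fold and none was higher, against 12.4% and 8.87% of all loci, and their median transcript was 1213 nt long. At 2 h their median was −0.03, on the other side of 0 from the cytosolic genes, and at 24 h it was −0.02. No test was made between the mitochondrial and the cytosolic genes. Loci of ribosomal protein pseudogenes, short copies whose reads can come from the parent mRNA, had a median of −0.12 at 7 d, with 17 of 56 lower and 2 higher, beside the same shares over all loci.

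At 7 d, lists of genes that act with the ribosome had medians nearer 0, and their transcripts were longer, with median lengths from 1893 to 3475 nt against 855 nt. Of 21 translation factors and other mRNAs known for terminal oligopyrimidine tracts, 1 was lower at 7 d and 1 higher by at least 1.2-fold, with a median of −0.06. Over all loci 12.4% were lower and 8.87% higher. Naca, part of a complex at the tunnel exit, read 139 and 111 FPKM (−0.33), and Eif3f, a subunit of an initiation factor, read 37.0 and 45.2 (0.29). Eef1a1, the most abundant elongation factor, read 1135 and 1126 (−0.01). At 2 h none of the 21 and at 24 h none of 22 loci was past 1.2-fold, with medians of 0.01 and −0.06. The shares of all loci were 7.94% lower and 10.9% higher at 2 h, and 5.87% and 6.57% at 24 h.

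Of 33 loci of ribosome assembly, 3 were lower at 7 d and 1 was higher (median −0.10). Over all loci 12.4% were lower and 8.87% higher. Nop10, of the pseudouridylation complex, read 43.8 and 32.4 FPKM (−0.43), Gnl3 read 6.39 and 5.18 (−0.30), and Rrp9 read 9.06 and 7.47 (−0.28). Gar1, of the same complex as Nop10, read 13.5 and 16.4 (0.28). At 2 h 2 of 35 loci were higher and 1 was lower (median 0.02), and at 24 h 2 of 36 were higher and 2 lower (median 0.02). The shares of all loci were 10.9% higher and 7.94% lower at 2 h, and 6.57% and 5.87% at 24 h. Of 21 mTOR pathway genes 1 was lower at 7 d, Rheb, the GTPase that activates mTOR (87.0 and 69.9 FPKM, −0.32), and 1 was higher, Mtor itself (8.27 and 10.8, 0.39), with a list median of 0.08. At 2 h 2 of 20 were higher and 2 lower (median 0.09), and at 24 h 1 of 21 was higher and 1 lower (median 0.05). The shares of all loci given for the assembly list also stand beside these mTOR pathway counts.

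Markers of other cells differed between some of the groups. In bulk tissue, fewer cells of a type and less RNA per cell cannot be told apart. The 5 red cell genes were all higher by at least 1.2-fold at 2 h, and their summed FPKM at 2 h was 323 in saline and 504 in cocaine, with 458 against 504 at 24 h and 452 against 529 at 7 d. The 6 astrocyte markers summed to 554 against 623 at 2 h, 643 against 577 at 24 h, and 532 against 637 at 7 d, with 2 lower at 24 h and 3 higher at 7 d. Oligodendrocyte markers summed to 715 in saline and 595 in cocaine at 24 h, with 1 of 5 lower. Over all loci 10.9% were higher at 2 h, 5.87% lower at 24 h and 8.87% higher at 7 d. Of the choroid plexus markers, Ttr read 1.90 in saline against 0.461 in cocaine at 2 h, 1.80 against 1.1 at 24 h, and 0.284 against 6.54 at 7 d, while Folr1 read 0.668 against 0.290 at 7 d. The astrocyte sums lie above, below and above saline at 2 h, 24 h and 7 d, while the ribosomal protein median lies above, below and below. The medians of the interneuron, microglia and endothelial markers lay between −0.08 and 0.16 at the 3 time points. The part of these cells in the ribosomal protein ratios was not tested.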

How the data were processed

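Polyadenylated RNA of the prefrontal cortex was sequenced in 12 libraries, 2 per group. Per the labels' processing notes, the authors used CASAVA 1.8.2, Trimmomatic 0.32, TopHat2 2.0.12 and Cufflinks 2.2.1 with Cuffdiff on GRCm38, whereas the methods name other versions and mm9, and the labels' protocol also differs from the methods in read length and number of libraries; the loci of all 75 genes overlap the same genes in RefSeq GRCm38.p6. The authors deposited 1 table per time point with 1 pooled FPKM per locus and group. The same tables hold the authors' log2 fold changes, test statistics, p values, q values and calls, which were not used. The headers call the first group C with the time, the sample descriptions use C for cocaine and CC for controls, and the order was settled from the levels in the supplementary tables, to which 440 of 445, 13 of 13 and 505 of 509 names were nearer in this order at 2 h, 24 h and 7 d.

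Ratios are log2(cocaine FPKM / saline FPKM) without a pseudocount, for tested loci above 0 in both groups whose mean FPKM reaches 1. A difference of at least 1.2-fold was counted. Pooled values allow no test, and depth cannot be read from them. Cufflinks gives estimated, not whole, fragments, and loci with near-identical copies are uncertain. The kit named in the methods does not mark strand, so reads from a gene and an antisense partner cannot be told apart. Lengths came from the GENCODE M1 transcripts, matched by symbol, and start sites from RefSeq. The genes and lists were chosen with earlier results of these data known. Genes were named by rule: the 5 highest and 5 lowest mean levels, the 8 lowest and 4 highest ratios at 7 d, the 4 highest and 4 lowest at 2 h and 24 h, the stalk, Rpsa, Rps6, paralogs with their parents, genes on more than 1 tested locus, and at most 5 genes past 1.2-fold per list; others were added to show a comparison, and some items that the rule names are not reported here. Steps used numpy 2.4.6, pandas 2.3.3 and matplotlib 3.10.9 under Python 3.11.15 and were tested on simulated data.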

Additional observations from a re-analysis of the deposited data

Results flagged for a closer look

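The ratio of cocaine to saline lay on opposite sides at different times after the last dose. Of 74 ribosomal protein genes, 63 were above 0 at 2 h and below 0 at 7 d, against 23.8% of all 12178 names compared. Above 0 at 2 h and below 0 at 24 h were 59, against 24.9% of all names. Both counts rest on small ratios at 2 h, when none of the 74 was past 1.2-fold (all loci 7.94% lower and 10.9% higher). No gene passed 1.2-fold in opposite directions at 2 time points. The difference between time points was not tested, because each value is pooled over 2 libraries and each time point has its own saline group and its own table.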

How the results depend on the processing

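No paired analysis was possible because each table holds 1 pooled value per group, and for the same reason no library could be left out. Of 191 recomputed values, 152 stayed within 0.05 on the log2 scale or within 1.5 times of a count, 37 moved further and 2 changed direction. Some of them could not change, since scaling a whole group shifts all ratios alike and leaves the large minus small difference as it was. Counts over fewer genes can also move by the number of genes alone. The locus with the highest value in each group held 44.5% to 84.7% of the sum over all listed loci. Dividing by that sum moved the median of all loci to 0.86, 0.38 and −1.53 at 2 h, 24 h and 7 d. It gave medians of the ribosomal protein genes of 0.91, 0.30 and −1.75. At 2 h 74 were higher (98.2% of all loci). At 24 h 0 were lower (0.998%) and 53 higher (80.5%), and at 7 d 75 were lower (99.5%). The 7 d cocaine level lay inside the saline levels for 3 genes (4.92% of all names). Saline at 7 d was highest for 0 (0.123% of all names). The sum over protein-coding names, chosen after seeing the data, had 11% to 87.9% of its total in 1 locus, Trbc2. It moved the median of all loci to 0.45, −0.80 and 0.58. The ribosomal protein medians were then 0.50, −0.88 and 0.35. At 2 h 74 were higher (85.0% of all loci) and at 24 h 74 were lower (98.2%). At 7 d 0 were lower (1.08%) and 59 higher (91.8%). Saline at 7 d was highest for 0 (0.0164% of all names). The upper quartile, also chosen after seeing the data, gave a 7 d median of −0.18 and 17 lower (8.47% of all loci). Dividing by the median of the shared names left 69 of 74 genes highest in saline at 7 d (32.0% of all names). The upper quartile left 62 (22.0% of all names). Taking out the length trend gave 1 higher at 2 h (8.17% of all loci) and 1 lower at 24 h (4.97%). At 7 d it gave a median of −0.0485 with 5 lower (5.85%). At 1.1-fold, 1 gene was lower and 16 higher at 2 h (all loci 17.4% and 24.7%), 10 were lower at 24 h (15.5%) and 59 at 7 d (26.2%). At 1.5-fold, 0 were lower at 24 h (1.26%) and 1 at 7 d (2.11%). At 24 h the count of 2 lower genes became 1 with a pseudocount of 1, 4 of 77 loci with no filter, 1 at a mean FPKM of at least 50, and 0 without genes that also name a pseudogene locus, or (added after seeing the data) among the 47 with the same locus ends. The shares of all loci were 3.27% with the pseudocount, 9.67% with no filter, 3.64% at 50 FPKM and 5.87% for the others. Leaving out genes that also name a pseudogene locus kept 11 of 20 lower at 7 d (12.4% of all loci) and gave a large minus small difference of −0.10 at 2 h. The 47 genes with the same locus ends gave 20 lower at 7 d (12.4% of all loci). Of them, 35 were inside the saline levels (61.3% of all names) and 41 highest in saline at 7 d (25.9%).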
